A study of Volvox carteri with 4 samples.

Results

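*Volvox carteri* is a multicellular green alga whose spheroids hold many small flagellated somatic cells at the surface and a few large gonidia, the germ cells, inside. Runs of neighbouring somatic genes are stretches of at least 4 gene models that follow each other in number on one scaffold and that each had a log2 ratio of at least 2, somatic over gonidial. The ratio was taken between mean CPM (a gene's count as a share of its library's total, scaled to a common size) after adding 1 CPM to both means. This rule found 48 members in 11 runs on 10 scaffolds, of 16008 gene models in all. The members were chosen by the measured counts of all 4 libraries, so the levels and ratios of the members are given as a description and without a test.

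RNA was counted in 2 gonidial and 2 somatic libraries, each made from its own cultures, of which only one cell-type was kept. All 4 were of strain Eve and of the same stage, the hatched adult spheroid at hour 42 of a 48 hour cycle, 6 hours into the second light period, when gonidia are full-grown but not yet dividing. The cells were freed by breaking the spheroids and were separated by density, so each library is a bulk sample in which fewer cells of a type and less RNA per cell cannot be told apart. The libraries held 11583555 and 11650101 gonidial counts and 10838222 and 13104583 somatic counts, and the 3 counts that an observed 0 leaves possible equal 0.229 to 0.277 CPM (counting error only). The flagella genes that served as somatic markers were at or above the threshold in 115 of 120 cases, with summed levels of 2089 and 1959 CPM in gonidia and 36054 and 40597 CPM in somatic cells. The gonidial cDNA clones of an earlier study were below a log2 ratio of 0 in 17 of 19 cases, with summed levels of 87339 and 93034 CPM in gonidial and 53851 and 43766 CPM in somatic libraries. Their median log2 ratio was -0.82. Only 4 of the 19 were at -2 or less, and 1 was at or above the somatic threshold. *regA*, the transcriptional repressor that keeps somatic cells from growing and dividing, had counts of 1 and 0 in gonidia and of 486 and 786 in somatic cells. Somatic marker counts were thus also present in the gonidial libraries, and their part in the gonidial levels of the members was not tested.

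As background, genes that lie beside each other in a nuclear genome are mostly transcribed one by one. Neighbours can be copies of each other that arose by tandem duplication, can be read from a shared promoter region in opposite directions, or can have nothing in common. Which of these applies to any run was not tested, since strand, distance and sequence of the models were not used here. The number in a model's identifier gives its order on the scaffold, and the numbers had no gaps. Of the models, 14247 carried a scaffold and an order number, on 200 scaffolds, and the other 1761, of which 136 were at or above the threshold, could not enter a run. The place of these 1761 was not used, and some may lie between numbered models. Neighbours and steps below therefore refer to the numbered models only.

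Of the numbered models, 1958 (13.7%) were at or above the threshold. These are called somatic models below, except where a call by a count test is named. The 48 members were 2.45% of these and 0.337% of all numbered models, so most somatic genes did not lie in a run of this length. There were 8 runs of 4 models, 2 runs of 5 and 1 run of 6. The other somatic models stood alone in 1177 cases, in pairs in 266 cases and in runs of 3 in 67 cases. In the opposite direction, 2536 numbered models (17.8%) had a log2 ratio of -2 or less. They formed 22 runs of at least 4 with 98 members, or 3.86% of the gonidial models, and the longest had 7 models. Runs of this kind were thus found in both directions, as the plot of run lengths shows. Which direction had more runs depended on the scaling, the threshold and the libraries used. There were 25 somatic against 12 gonidial runs under TMM, 25 against 10 under DESeq2's size factors and 6 against 4 at a threshold of 3. Gonidial replicate 2 set alone against somatic replicate 2 gave 18 against 16.

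**Figure D1:**
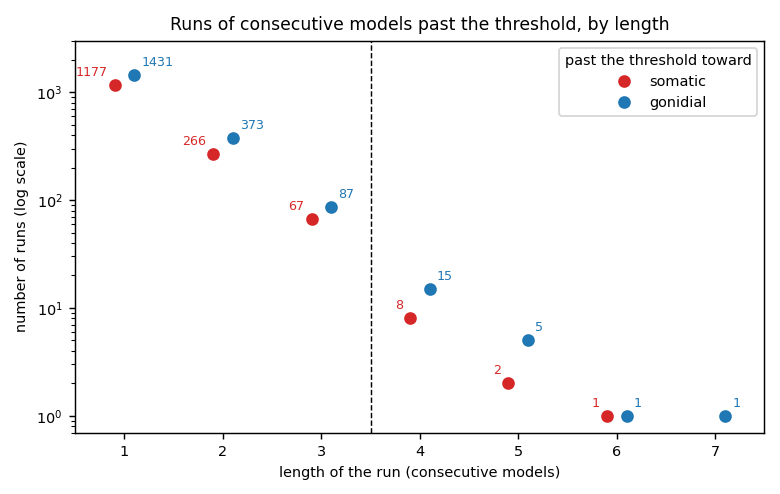
Number of runs (log scale) against the length of the run in consecutive gene models, for models past the threshold toward somatic cells (red) and toward gonidia (blue), with each number printed beside its point. The dashed line separates the runs of at least 4 models, of which there were 11 somatic and 22 gonidial.

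All 48 members had enough counts to be tested with edgeR, and all 48 were called higher in somatic cells, a call made for 25.9% of the 13350 models tested, while 46.9% were called higher in gonidia. Of the models called either way, 35.6% were thus somatic, and this share was 47.3% with TMM and 48.4% with DESeq2's size factors as the scaling. In all 48 each somatic library was higher than each gonidial one, which held for 34.9% of tested models. The rule used this contrast, and nothing is read from either count. The log2 fold change from edgeR ran from 2.04 to 10.51 over the members with a median of 5.93, and its median over all tested models was -0.87. By the log2 ratio of the rule, 9 members lay between 2 and 3, 17 between 3 and 5, and 22 at 5 or more, of which 9 were at 7 or more. The members together held 0.0545% and 0.0533% of the gonidial counts and 2.57% and 2.82% of the somatic counts. The other 1910 somatic models held 1.47% and 1.31% of the gonidial counts and 33.5% and 37.5% of the somatic counts.

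**Figure D2:**
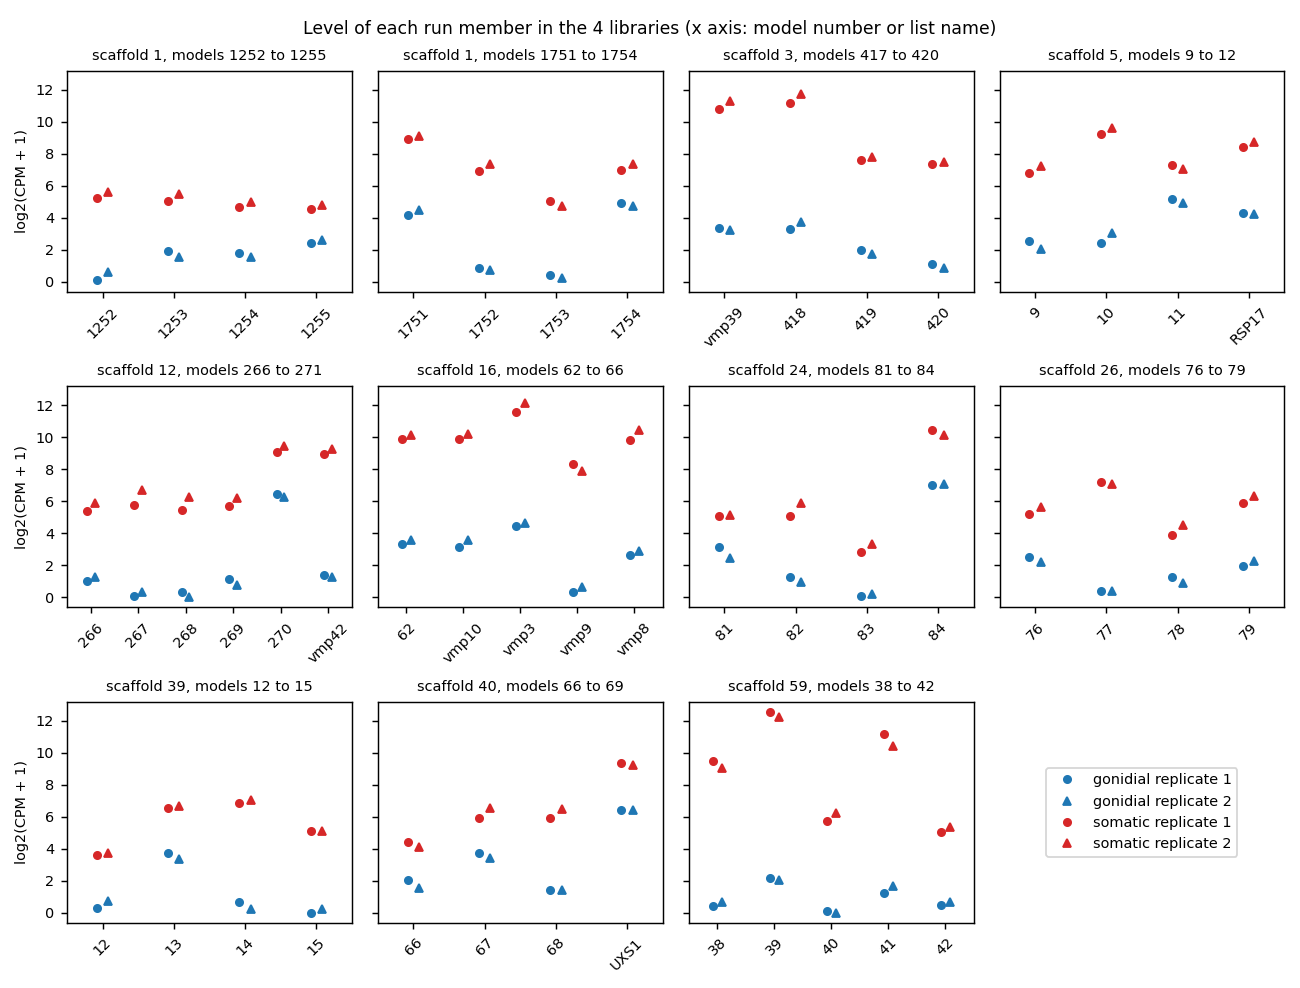
Level of each of the 48 members as log2(CPM + 1), in one panel for each of the 11 runs with the models in scaffold order, for gonidial replicates 1 and 2 (blue) and somatic replicates 1 and 2 (red). Models that a gene list of the study names carry that name, or the first of several. In every panel both red points of a model lie above both blue points.

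The genes of the extracellular matrix made up the best-known group in the runs. This matrix fills most of the volume of a spheroid and is secreted largely by somatic cells, and among its proteins are the VMPs, *Volvox* matrix metalloproteases related to the enzyme gametolysin that dissolves the cell wall of *Chlamydomonas* gametes. Of the 30 numbered extracellular matrix genes at or above the threshold, 6 (20%) were run members, and they were 12.5% of the members but 1.26% of the other somatic models. All 6 were VMP genes, and 4 of them followed each other on scaffold 16.

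The run on scaffold 16 had 5 members, Vocar.0016s0062 to Vocar.0016s0066, and its summed level was 43.2 and 53.0 CPM in the gonidial and 6195 and 8413 CPM in the somatic libraries. The first member, Vocar.0016s0062, carries no name in the gene lists and had 106 and 126 gonidial and 10295 and 14451 somatic counts (log2 ratio 6.55). The model listed as *vmp10* and *vmp30* (Vocar.0016s0063) had 89 and 125 gonidial and 10434 and 15393 somatic counts (log2 ratio 6.71). In both models the groups were far apart, and somatic replicate 2 was the higher of the somatic libraries. *vmp3* (Vocar.0016s0064) had 240 and 285 gonidial and 33336 and 58928 somatic counts (log2 ratio 7.33). *vmp9* (Vocar.0016s0065) had 3 and 7 gonidial and 3438 and 3043 somatic counts (log2 ratio 7.59). The model listed as *vmp8* and *vmp11* (Vocar.0016s0066) had 62 and 74 gonidial and 9642 and 18428 somatic counts (log2 ratio 7.39). The 5 ratios thus lay within 1.04 of each other on the log2 scale, the narrowest span of the 11 runs by this ratio. The ratio includes the added 1 CPM, which lowers it most for *vmp9*. By edgeR's log2 fold change the 5 models ran from 6.54 to 9.16 (*vmp9*). The run on scaffold 3 was narrower by that measure, from 6.16 to 7.91. *vmp9* was the only one of the 5 with the higher somatic level in replicate 1. Depth-scaled pooled counts were 171-fold higher in somatic cells for *vmp3*, with a 95% interval from 157 to 186 that covers counting error only. The interval for *vmp9* was wider, from 342 to 1312 around 629, since it rests on few gonidial counts.

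In RefSeq's annotation of the earlier v1.0 assembly, the models named *vmp8*, *vmp9*, *vmp11*, *vmp3* and *vmp10* are listed next to each other with no other model between them. The place of *vmp11* differs from the numbering used here, in which one model carries the names *vmp8* and *vmp11*. Only reads that mapped to a single place were counted. Reads shared by near-identical copies are therefore missing from these counts, and how that affects each VMP gene was not tested.

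The remaining VMP members were *vmp42* at the end of the longest run and *vmp39* at the start of a run on scaffold 3. The longest run was Vocar.0012s0266 to Vocar.0012s0271 on scaffold 12, with a summed level of 89.0 and 78.8 CPM in the gonidial and 1218 and 1616 CPM in the somatic libraries. *vmp42* (Vocar.0012s0271) had 19 and 16 gonidial and 5428 and 7910 somatic counts, with a log2 ratio of 7.79. Its neighbour Vocar.0012s0270 differed from it most, with 982 and 874 gonidial and 5749 and 9185 somatic counts and a log2 ratio of 2.93. The span within this run was thus 4.86 on the log2 scale, and the groups did not overlap in either gene. Of the other 4 members, none of which has a name in the gene lists, Vocar.0012s0266 had 12 and 17 gonidial and 442 and 751 somatic counts. Vocar.0012s0269 had 14 and 8 gonidial and 554 and 958 somatic counts, so that these models at the edge and in the middle of the run were alike, with log2 ratios of 4.48 and 5.02. Vocar.0012s0267 had 1 and 3 gonidial and 574 and 1365 somatic counts, a pooled ratio of 470 with a 95% interval from 183 to 1728. Vocar.0012s0268 had 3 and 0 gonidial and 454 and 1010 somatic counts, a pooled ratio of 474 with an interval from 162 to 2299. Both were close to the limit of detection in gonidia, and both had their somatic libraries furthest apart among the members, with a CPM in replicate 2 that was 1.97 and 1.84 times that in replicate 1.

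The run on scaffold 3 had 4 members, Vocar.0003s0417 to Vocar.0003s0420, with a summed level of 22.4 and 23.8 CPM in the gonidial and 4416 and 6256 CPM in the somatic libraries. *vmp39* (Vocar.0003s0417) had 110 and 96 gonidial and 18866 and 33321 somatic counts (log2 ratio 7.76). Vocar.0003s0418 had 102 and 144 gonidial and 25081 and 43480 somatic counts (log2 ratio 7.93). These models were nearly alike in ratio, and in both the CPM of somatic replicate 2 was above that of replicate 1, by 1.46 and 1.43 times. The other members of the run had lower ratios. Vocar.0003s0419 had 34 and 27 gonidial and 2144 and 2844 somatic counts (log2 ratio 5.84), and Vocar.0003s0420 had 14 and 10 gonidial and 1773 and 2335 somatic counts (log2 ratio 6.40). The runs on scaffolds 3 and 16 were those in which every member had a log2 ratio of at least 5 by the rule, with 1 CPM added. By edgeR's log2 fold change every member of the run on scaffold 59 was above 5 as well, the lowest at 5.98. In RefSeq's v1.0 annotation the model next to *vmp39* is *dz-hrgp*, a hydroxyproline-rich glycoprotein of the matrix, and it was not matched to a model of the version used here.

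The 3 highest ratios of all members were on scaffold 59, in a run of 5 models that no gene list of the study names, Vocar.0059s0038 to Vocar.0059s0042. Its summed level was 5.78 and 6.52 CPM in the gonidial and 9093 and 6745 CPM in the somatic libraries. Vocar.0059s0039 had 41 and 37 gonidial and 65026 and 62002 somatic counts (log2 ratio 10.27). Its pooled ratio was 1580 with a 95% interval from 1266 to 1999, the largest lower bound among the 48 members. Vocar.0059s0041 had 16 and 25 gonidial and 25069 and 17970 somatic counts (log2 ratio 9.38), and Vocar.0059s0038 had 4 and 7 gonidial and 7548 and 6922 somatic counts (log2 ratio 8.70). In these 3 models the CPM of somatic replicate 2 was below that of replicate 1, at 0.789, 0.593 and 0.758 times, whereas it was above replicate 1 in most members. The other models of the run had lower somatic counts. Vocar.0059s0040 had 1 and 0 gonidial and 557 and 966 somatic counts, and its pooled ratio of 1478 has an interval from 265 to 58411, too wide to place it among the members. Vocar.0059s0042 had 5 and 7 gonidial and 353 and 528 somatic counts (log2 ratio 4.63).

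Scaffold 59 had a higher share of somatic models than the other scaffolds with a run. Of its 49 models, 15 (30.6%), the 5 members included, were at or above the threshold, against 13.1% to 17.5% on the other 9. Over the 52 scaffolds with at least 50 models, a limit that scaffold 59 falls just short of, the share ran from 5.06% to 19.6% with a median of 13.5%. The model after the run, Vocar.0059s0043, had counts of 2 and 2 in the gonidial and 0 and 0 in the somatic libraries and was too low to be tested. Beyond it came 3 more somatic models, named here after their values were seen. Vocar.0059s0044 had 2 and 7 gonidial and 68 and 69 somatic counts, and Vocar.0059s0045 had 129 and 121 gonidial and 1721 and 3469 somatic counts. Vocar.0059s0046 had 32 and 21 gonidial and 143 and 218 somatic counts. When only tested models were placed in order, these joined the run to make 8, and the other 10 runs kept their first and last models.

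The run on scaffold 24, Vocar.0024s0081 to Vocar.0024s0084, ended with a model that was well expressed in both cell-types. The summed level of the run was 139 and 137 CPM in the gonidial and 1459 and 1244 CPM in the somatic libraries. Vocar.0024s0084 had 1495 and 1536 gonidial and 15041 and 14968 somatic counts (log2 ratio 3.27), and the groups did not overlap. Vocar.0024s0082 had 17 and 11 gonidial and 352 and 765 somatic counts (log2 ratio 4.40). Vocar.0024s0083 had 1 and 2 gonidial and 65 and 120 somatic counts, and its 65 was the lowest somatic count of any member. Its log2 ratio of 2.93 includes the added 1 CPM, and the pooled ratio without that addition was 59.8 with an interval from 20.2 to 293.

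Members that the gene lists name outside the matrix were one flagellar gene and one enzyme of sugar nucleotide synthesis. *RSP17* (Vocar.0005s0012), a protein of the radial spokes that link the outer doublets of the flagellar axoneme to its centre, had 218 and 208 gonidial and 3618 and 5442 somatic counts (log2 ratio 4.28). It was the last of 4 models on scaffold 5, after Vocar.0005s0009, Vocar.0005s0010 and Vocar.0005s0011. Of the 114 numbered flagella genes at or above the threshold it was the only member (0.877%), and flagella genes were 2.08% of the members against 5.92% of the other somatic models. *UXS1* (Vocar.0040s0069), which makes UDP-xylose from UDP-glucuronate for the sugar chains of glycoproteins, had 990 and 1000 gonidial and 6947 and 7924 somatic counts (log2 ratio 2.85). It closed the run on scaffold 40, where the ratios lay between 2.45 and 4.78. In all, 8 of the 48 members (16.7%) were on a gene list of the study, against 193 of the 1910 other somatic models (10.1%). The other 40 members have no name or role in the sources used here. None was on the lists for photosynthesis, carbon metabolism, basal body and transition zone, glycosyltransferases, autophagy or the VARL family of DNA-binding proteins, nor among the genes and cDNA clones of earlier studies.

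Both the *regA* cluster and other matrix genes fell outside the rule. *regA* had a log2 ratio of 5.68, but its relatives beside it did not reach the threshold. *rlsA* had 0 and 1 gonidial and 12 and 13 somatic counts, and *rlsB* had 1 and 1 gonidial and 21 and 36 somatic counts. The log2 ratio was 0.97 for *rlsA* and 1.62 for *rlsB*, where the added 1 CPM weighs heavily. *rlsC*, further along the scaffold, had 1 and 0 gonidial and 0 and 0 somatic counts (log2 ratio -0.06). *vmp1* (Vocar.0007s0366), with 37 and 33 gonidial and 39776 and 43770 somatic counts, was in a run of 3. *ssgA* and *phI*, which encode matrix glycoproteins, stood alone among their neighbours with log2 ratios of 10.44 and 7.66. These genes were named after their values were seen.

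The remaining 6 runs are given by their summed levels. CPM grows with the length of a transcript, so these levels are set side by side between cell-types and not between runs. On scaffold 5, summed levels were 62.8 and 57.7 CPM in gonidial and 1188 and 1476 CPM in somatic libraries. The first run on scaffold 1, models 1252 to 1255, had 9.58 and 9.44 CPM in gonidial and 115 and 149 CPM in somatic libraries, and its ratios stepped down in scaffold order from 5.05 to 3.54, 3.16 and 2.16. The second run on scaffold 1, models 1751 to 1754, had 48.5 and 47.7 CPM in gonidial and 770 and 893 CPM in somatic libraries, with its highest ratio, 6.33, at the second model. On scaffold 26 the run of models 76 to 79 had 9.50 and 8.76 CPM in gonidial and 253 and 285 CPM in somatic libraries. Its Vocar.0026s0077 had 4 and 4 gonidial and 1585 and 1785 somatic counts, and the ratios of the 3 others lay between 3.03 and 3.98. On scaffold 39, models 12 to 15 had 13.1 and 10.4 CPM in gonidial and 253 and 281 CPM in somatic libraries, and on scaffold 40, models 66 to 69 had 103 and 99.1 CPM in gonidial and 781 and 800 CPM in somatic libraries. In each of these 6 runs the summed somatic level was at least several times the gonidial one in every pairing of libraries.

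Members just inside the threshold were Vocar.0005s0011 at 2.13, Vocar.0001s1255 at 2.16 and Vocar.0024s0081 at 2.25. Vocar.0005s0011 had 401 and 341 gonidial and 1681 and 1724 somatic counts. Vocar.0001s1255 had 50 and 59 gonidial and 242 and 349 somatic counts, and Vocar.0024s0081 had 93 and 52 gonidial and 351 and 454 somatic counts. Each of them was in a run of 4, which would not have met the rule without it. The flanking models just outside were Vocar.0039s0011 at 1.96, Vocar.0039s0016 at 1.43 and Vocar.0003s0416 at 1.14. Vocar.0039s0011 had 4 and 2 gonidial and 34 and 61 somatic counts, and with it the run on scaffold 39 would have held 5. Vocar.0039s0016 had 2027 and 2001 gonidial and 4012 and 7416 somatic counts, and Vocar.0003s0416 had 22 and 26 gonidial and 59 and 79 somatic counts.

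The 22 models directly beside a run had log2 ratios from -2.68 to 1.96 with a median of -0.52. Of these, 17 (77.3%) were at or below 0, 9 were at -1 or less, and 3 were above 1. By the rule none of them could reach 2. Over all 12289 numbered models below 2 the median was -0.61 and 72.4% were at or below 0, so the models beside the runs were close to other models below the threshold. A model below the threshold can still be called somatic by edgeR, whose call needs only a 2-fold difference. In 4 of the 22, every library had at most 10 counts. Within 5 models on either side, 17 of 110 models (15.5%) were at or above the threshold, against 13.7% of all numbered models. The 110 include the 22 direct neighbours that could not reach it, so the share among the others was higher than 15.5%. The plot of ratios along each run shows these models beside the members.

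**Figure D3:**
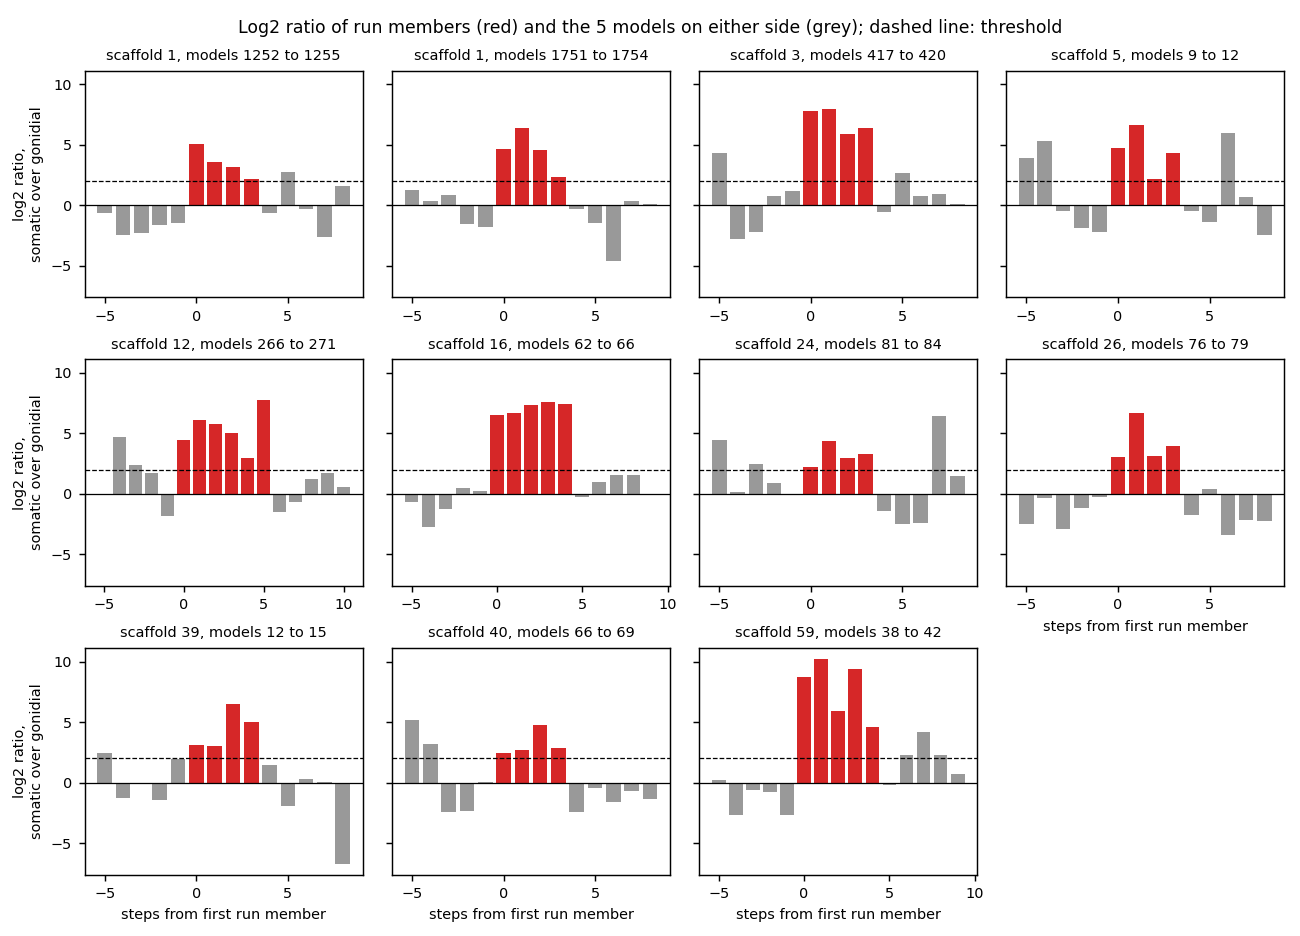
Log2 ratio, somatic over gonidial, of the members (red) and of the 5 models on either side (grey), against the number of steps from the first member, for each of the 11 runs; the dashed line is the threshold of 2. The models next to a run are mostly at or below 0. The bars of scaffold 16 are the most even by this ratio, which includes the added 1 CPM.

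How often somatic models lie next to each other was measured over all numbered models. Of 1934 somatic models with a next model on the scaffold, 437 (22.6%) were followed by another somatic model. After a model that was not somatic, 12.3% of next models were somatic (1493 of 12113). At a step of 2 the share was 14.4%, at 3 it was 14.0%, and at steps 6 to 20 it lay between 12.5% and 14.7%, around the 13.7% of all numbered models. The share was thus raised at the directly neighbouring model and little beyond it. Computed from each pairing of one gonidial and one somatic library, the share for the next model had an SD of 0.762 percentage points over the 4 pairings, which share libraries. The next model was gonidial after 14.0% of somatic models and after 18.0% of all models. After somatic models outside the runs the share of somatic next models was 21.2% (400 of 1886). Leaving out the members lowers this share by construction, since the rule chose them for their somatic neighbours. Where both models of a pair were tested the share was 24.7% after a somatic model and 13.6% after any other.

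**Figure D4:**
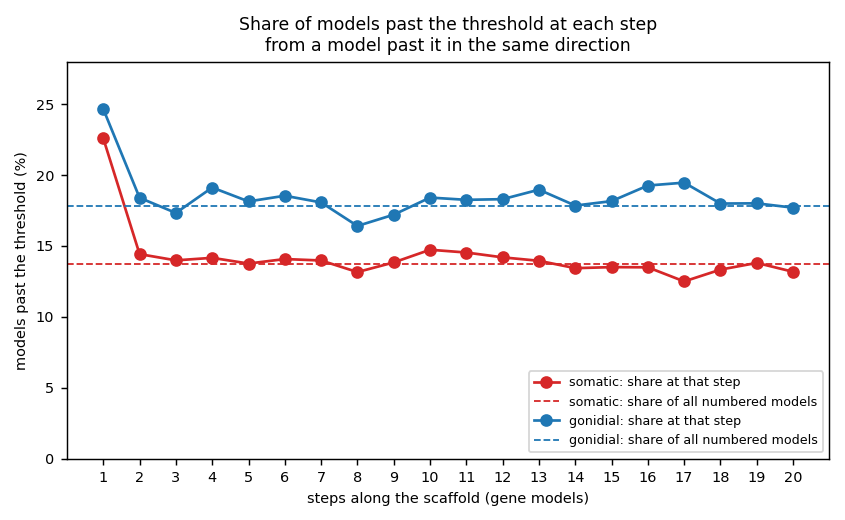
Percentage of models past the threshold at each number of steps along the scaffold from a model past it in the same direction, for somatic (red) and gonidial (blue) models; dashed lines are the percentages over all numbered models, 13.7% and 17.8%. The share is raised at the first step, to 22.6% and 24.7%, and lies near the dashed line from the second step on.

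The gonidial direction showed the same shape. Of 2526 gonidial models with a next model, 623 (24.7%) were followed by another, and the share was 18.4% at a step of 2 and between 16.4% and 19.5% at steps 6 to 20. Longer stretches did not raise the somatic share step by step. After 1, 2, 3 and 4 somatic models in a row the next was somatic in 22.6%, 21.5% (93 of 433), 16.1% (15 of 93) and 26.7% (4 of 15) of cases. The last share rests on 15 cases. For gonidial models the shares in the same order were 24.7%, 22.7%, 22.9% and 31.3%, the last over 32 cases. Over all 14047 pairs of numbered neighbours, which are not independent and share all 4 libraries, the log2 ratios had a Pearson's r of 0.15 and a Spearman's rho of 0.16. At a step of 2 these were 0.015 and 0.019 over 13922 pairs.

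The rule used the mean of the somatic replicates and not the difference between them, which is described here. The CPM in somatic replicate 2 over that in replicate 1 ran from 0.593 to 1.97 over the members with a median of 1.27, and it was above 1 in 38 and below 1 in 10. Its median was 1.20 over the other somatic models with at least 50 counts in both somatic libraries and 1.15 over all such numbered models. By run, the median was lowest on scaffold 59 at 0.789 and highest on scaffold 12 at 1.42. Over the 37 pairs of neighbouring members, the log2 of this ratio had a Pearson's r of -0.05 and a Spearman's rho of -0.05. Over all 424 pairs of neighbouring somatic models with at least 50 counts in both somatic libraries, r was 0.25 and rho was 0.24, and at a step of 2 they were 0.13 and 0.08 over 269 pairs. In all these sets both models of a pair had passed the threshold. Over all 3583 pairs of numbered neighbours with at least 50 counts in both somatic libraries, past the threshold or not, r was 0.097 and rho was 0.092. At a step of 2 these were 0.025 and 0.016 over 3234 pairs. The pairs overlap and share both somatic libraries, so they are not independent.

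Single libraries gave similar sets of runs in most cases. Gonidial replicate 1 set against somatic replicate 1 gave 44 members in 10 runs, all 44 of them among the 48. Gonidial replicate 2 against somatic replicate 1 gave 52 members, of which 44 were among the 48, and gonidial replicate 1 against somatic replicate 2 gave 53, of which 40 were. Gonidial replicate 2 against somatic replicate 2 gave 77 members in 18 runs, which included all 48. Gonidial runs numbered 16 to 45 over the 4 pairings, and the 16 were found in this last pairing, fewer than its 18 somatic runs. The number of runs thus depended on the pair of libraries, and most members were found with each pair.

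How many runs were found depended more on the scaling of the libraries than on any one of them. TMM and DESeq2's size factors, which raise the median log2 ratio of tested models by 0.37 and 0.41 over plain totals, both gave 107 members in 25 runs, with all 48 among them, and 12 and 10 gonidial runs. Adding 5 CPM in place of 1 left 28 of the 48 in 6 runs.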

How the data were processed

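Polyadenylated RNA of 2 gonidial and 2 somatic preparations was sequenced as single-end reads. The authors used Trimmomatic for trimming, STAR for alignment to the version 2 assembly and HTSeq for counting reads with a single mapping place on 16008 gene models. The deposited values are raw counts, whole numbers without normalization, with replicates kept apart. The submitters' processing notes name bcl2fastq 1.8.4. The library preparation described does not mark strand, so reads from a stretch where neighbouring models overlap cannot be told apart by strand. The deposited files gave no lengths or sequences for these models, and none were used.

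CPM was computed from plain column totals and members by the stated rule, with 1 CPM added, a log2 threshold of 2 and runs of at least 4. No shuffled gene order was used. The count test, run on the whole table, was edgeR's quasi-likelihood test with cell-type as the only term. For library sizes, models in the top 0.3% of counts were left out of the totals. Models without counts and then the lowest 10% by mean normalized count were dropped, which left 13350 to test, with Benjamini-Hochberg adjustment. Models called had adjusted p-values under 0.05 and differed at least 2-fold. Pooled ratios have exact 95% binomial intervals conditional on the summed counts. PCR copies are not independent molecules, so intervals and floors cover counting error only. With 2 libraries per cell-type an exact two-sided permutation test of a single value cannot go below p = 0.333, and none was made.

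Members and gene lists were chosen with earlier results of these data known. The models named are the members that a gene list of the study names, all members of the 3 longest runs and of the 5 runs with the largest summed somatic CPM, the 3 members and 3 flanking models nearest to the threshold, and the member with the largest lower bound of its ratio. Others are said to be named after their values were seen or are given as part of a run. Alternatives were TMM and DESeq2 scaling, trimmed totals, 0.25 or 5 CPM added, thresholds of 1 and 3, runs of at least 3 or 5, the order over tested models, the DESeq2 Wald test, other count filters, a replicate block and each library left out. The steps were tested on simulated data. Software was Python 3.11.15 with pandas 2.3.3, numpy 2.4.6 and scipy 1.17.1, and R 4.3.3 with edgeR 4.0.16 and DESeq2 1.42.0.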

Additional observations from a re-analysis of the deposited data

How the results depend on the processing

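The number of members and runs moved with most choices of scale and threshold. Against 48 members in 11 runs, TMM gave 107 in 25, DESeq2's size factors 107 in 25, and 0.25 CPM added 91 in 21, each with all 48 included. Adding 5 CPM gave 28 in 6, a threshold of 1 gave 231 in 53, a threshold of 3 gave 26 in 6, runs of at least 3 gave 249 in 78 and runs of at least 5 gave 16 in 3. Trimmed totals gave 61 in 14 and the order over tested models 67 in 15. The share of next models that were somatic, 22.6% with plain totals, was 26.4% with TMM, 26.7% with DESeq2's size factors and 25.4% with 0.25 CPM added, where 16.6%, 16.9% and 15.6% of all numbered models were somatic. The 22 gonidial runs became 12, 10 and 86 in the same order, 48 with trimmed totals and 4 with 5 CPM added or a threshold of 3. They became 230 with a threshold of 1 and 27 with the order over tested models. Runs of at least 3 numbered 109 and runs of at least 5 numbered 7 in the gonidial direction. Gonidial runs were fewer than somatic runs with TMM, DESeq2's size factors, 5 CPM added or a threshold of 3. They were also fewer in the pairing of gonidial replicate 2 with somatic replicate 2, at 16 against 18. In the other settings given here, including with each library left out, gonidial runs outnumbered somatic runs. With each library left out in turn there were 44 to 65 members, 10 to 15 runs, a next-model share of 22.5% to 23.4% and 18 to 33 gonidial runs. Without gonidial replicate 2, 44 of the 48 members were kept, and without each of the other libraries all 48 were.

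Since the rule chose the members on these counts, their calls say nothing about stability. All 48 were called somatic by edgeR with either scaling, without a filter and with each library left out, where the lone library is assumed to vary like the other cell-type, and by the DESeq2 Wald test, and 33 of them under a minimum of 10 counts in each library, which removes members that are nearly silent in gonidia. Replicate numbers do not pair libraries here, since each library came from its own cultures, and same-numbered deviations had a correlation of -0.039 over 13350 models. With the replicate block 48 members were called somatic, and 3433 models in all against 3458. The causes of these differences were not tested. Depth limits the 5 members with at most 3 counts in each gonidial library, whose ratios have wide intervals.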
